A study of Arabidopsis thaliana with 6 samples.

Results

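In pollen tubes of the agp6 agp11 double mutant, 304 probe sets gave signals that were raised clear of every wild type array and above a set minimum in both genotypes. They were taken by a fixed rule from a table of 22746 probe sets: the signal had to exceed 40 on all 6 arrays, and the lowest double mutant signal had to be at least 1.3 times the highest wild type signal. Of the 4858 probe sets above 40 on all 6 arrays, called expressed here, 311 met the ratio, which is 6.4% of them, and 7 of these were left out by locus. The mirror rule, the lowest wild type signal at least 1.3 times the highest double mutant signal, was met by 116 probe sets, or 2.39%. The members were chosen by the signals of both genotypes on these 6 arrays, so their signals and ratios are given as a description and no test of the genotypes was applied to any member.

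The double mutant was a homozygous line in which both genes carry a Ds transposon, obtained by crossing 2 insertion lines, and it was compared with wild type plants of the ecotype Nossen. No other allele or agent separates the groups as labelled. Both genotypes were sampled after pollen had germinated for 8 h in darkness in vitro, and each genotype was measured on 3 ATH1 arrays, 1 for each biological replicate. The values are intensities on a linear scale, called signals here, and they were scaled together across the 6 arrays by the authors. A single double mutant line was measured, so a change caused elsewhere in its genome cannot be told apart from one caused by the loss of the 2 proteins.

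Arabinogalactan proteins are heavily glycosylated proteins of the cell surface, and AGP6 and AGP11 are members of this family expressed in the male gametophyte. A pollen tube is a single vegetative cell that grows at its tip by secretion of new wall and membrane, and it carries the sperm cells inside it. Its growth depends on sugar uptake, respiration, ion gradients, vesicle traffic and a dynamic cytoskeleton.

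The samples matched their labels. AGP6 signals were 15.1 to 31.1 in agp6 agp11, against 9597 to 13677 in wild type, and AGP11 signals were 32.5 to 40.4 in agp6 agp11, against 5604 to 10016 in wild type. The median signal was 23.4 to 24.5 on the double mutant arrays and 23.3 to 23.9 on the wild type arrays, and over the expressed probe sets the log2 signals of arrays of the same genotype correlated at 0.905 to 0.977. The vegetative cell actin ACT4 had signals of 2754 to 2989 in agp6 agp11 and 1929.5 to 2356 in wild type, and ACT12 had 930.4 to 1601 in agp6 agp11 and 824 to 974 in wild type. RCA, a marker of photosynthetic cells, had 25.96 to 47.9 in agp6 agp11 and 23.4 to 39.1 in wild type, above 40 on 1 of the 6 arrays. Of the listed tapetum markers At5g07230 could be measured, with 19.4 to 23.98 in agp6 agp11 and 18.2 to 21.6 in wild type, below 40 on every array. No listed marker of floral organs had a probe set tied to it in the tables used here, so the part of those cells in the results was not tested.

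Names could be given to 303 of the 304 members, each for a different locus: 181 were named by both the platform annotation and a gene table of the study, and 122 by that study table alone. The remaining probe set was named by neither. A role was set for 139 members from their annotation, in 16 groups, and 165 have none given here. Roles were set by hand and for members only, so the size of a group does not show how often genes of that role were raised. Since 15 of the 304 probe sets may match several genes by their probe design, their signals could come from related genes. COX19-2, ORP1B, ORC1B, UXS4, ARD1 and VIM3, named below, are among these 15.

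The raised signals were mostly moderate. The ratio of geometric mean signals, agp6 agp11 over wild type, had a median of 2.19 over the members, with quartiles of 1.85 and 2.71 and a range of 1.38 to 16.5. Over all 22746 probe sets the median ratio was 1.02. Over the 4554 expressed probe sets outside the module, the 7 left out by locus among them, it was 1.06. Of the 304 members, 185 exceeded a ratio of 2, 57 exceeded 3, 16 exceeded 5 and 4 exceeded 10, while 4 lay below 1.5. The mean signal of the members had a median of 296.5 in agp6 agp11 and 121 in wild type, and 50 members averaged above 1000 in agp6 agp11 against 11 in wild type.

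**Figure D1:**
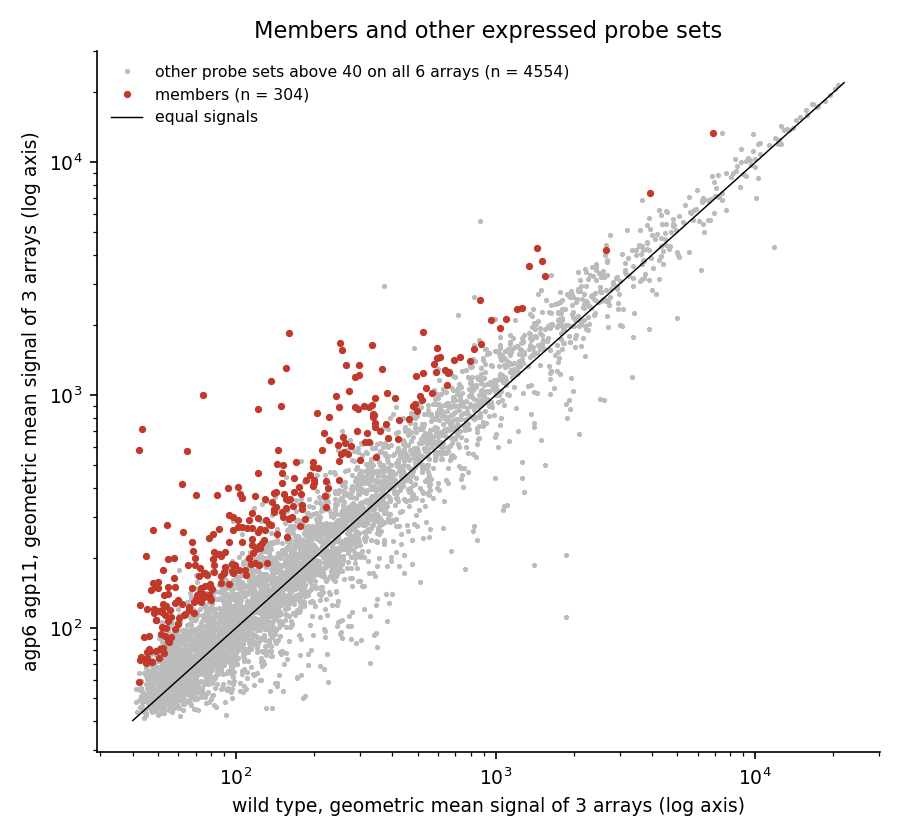
Geometric mean signals of 3 agp6 agp11 arrays (vertical, log axis) against those of 3 wild type arrays (horizontal, log axis) for the 4858 probe sets above 40 on all 6 arrays, with the 304 members in red and the line of equal signals in black. The members form a band above the line over most of the wild type range, with 11 of them averaging above 1000 in wild type, and the few far above the band had low wild type signals.

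Among the members just inside the ratio limit were FDM4 at 1.301, At1g54150 at 1.301 and At4g34450 at 1.305 for the lowest double mutant over the highest wild type signal. Just outside were At1g22750 at 1.298, At3g24200 at 1.297 and CPISCA at 1.297. At the signal limit, the lowest of 6 signals was 40.2 for VPEalpha, 40.4 for At3g55890 and 40.6 for At3g57990, all members, and 39.8 for TRX-M4, 39.1 for At1g77370 and 39.1 for GT18, which met the ratio but not the signal limit. The genes on either side of each limit had closely similar values.

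The 3 largest ratios belonged to genes that were dim on most wild type arrays. At1g65760, an F-box protein gene, had signals of 936, 597 and 656 in agp6 agp11, against 43.9, 41.5 and 44.95 in wild type, a ratio of 16.5. At5g40640 had signals of 878, 498 and 447 in agp6 agp11, against 42.7, 42.6 and 41.99 in wild type, a ratio of 13.7. The wild type signals of both genes lay just above the limit of 40 on each array. FBA8 (At3g52930), encoding a fructose-bisphosphate aldolase of glycolysis, had signals of 842, 1853 and 649.8 in agp6 agp11, against 43.3, 159 and 59.8 in wild type, a ratio of 13.5. For FBA8 replicate 2 was the highest array in both genotypes, and its lowest double mutant signal still exceeded its highest wild type signal by 4.09 times.

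COR27 (At5g42900), a cold-regulated repressor in the circadian clock, had signals of 2310.2, 1402 and 1975 in agp6 agp11, against 145, 169 and 166 in wild type, a ratio of 11.6. The genotypes were furthest apart here among the members with wild type signals all above 100, with a lowest to highest ratio of 8.28. TRX2 (At5g39950), the cytosolic thioredoxin h2, had signals of 1912, 1380.4 and 1786 in agp6 agp11, against 231, 199.8 and 343 in wild type, a ratio of 6.68. At2g15280 had signals of 645, 353 and 839.8 in agp6 agp11, against 63.6, 57.5 and 74.4 in wild type, a ratio of 8.90. The remaining members among the 12 with the largest ratios were BGLU14, CTF7, At5g01650, GPAT9, At3g12470 and At5g08140, with ratios of 8.48, 8.43, 7.13, 6.70, 6.10 and 6.04.

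**Figure D2:**
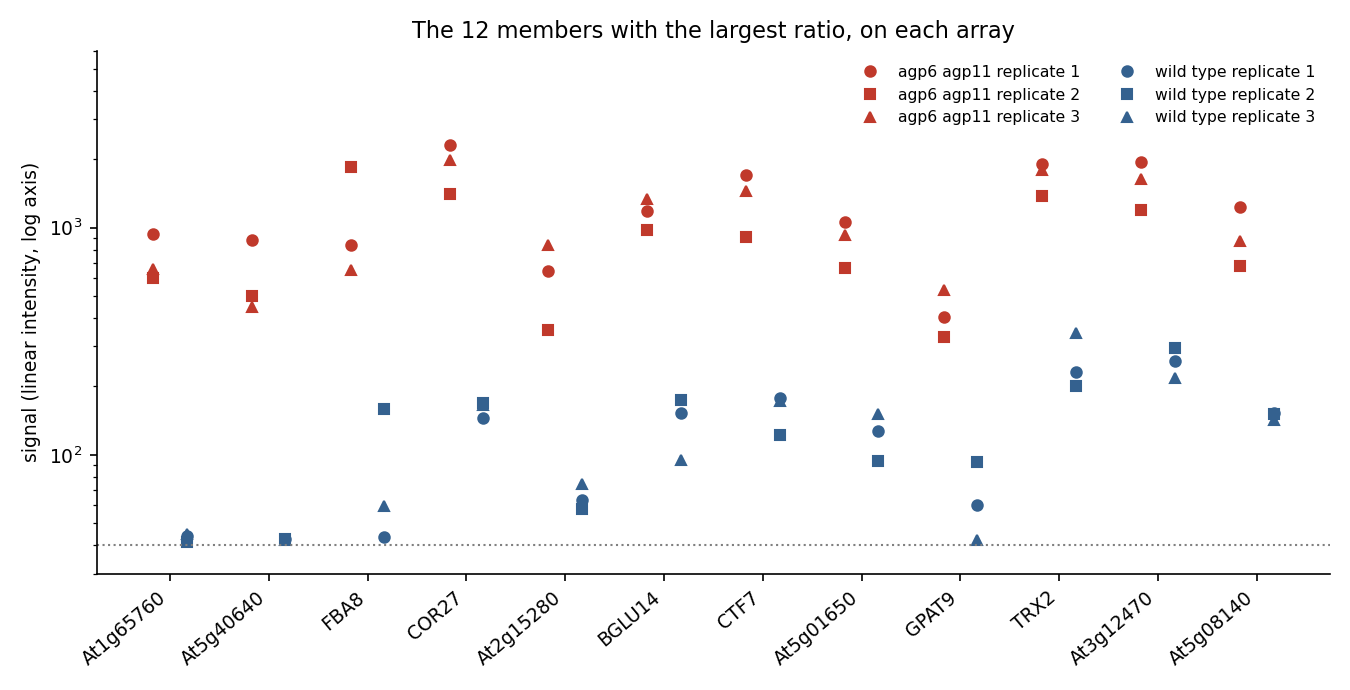
Signals of the 12 members with the largest ratio on each of the 3 agp6 agp11 arrays (red, left of each pair) and 3 wild type arrays (blue, right), on a log axis, with symbols for the replicate number and a dotted line at a signal of 40. At1g65760 and At5g40640 lie just above the dotted line on all wild type arrays, and replicate 2 of FBA8 is the highest array in both genotypes.

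The brightest members were genes that pollen tubes already expressed strongly. DAZ3 (At4g35700), encoding a zinc finger protein activated by the sperm cell regulator DUO1, had signals of 14517, 11155 and 14563 in agp6 agp11, against 7230.3, 5641 and 7953 in wild type. EXPB5 (At3g60570), a beta expansin that loosens cell walls, had signals of 7243, 6838 and 8071 in agp6 agp11, against 4243, 3065 and 4683 in wild type. MAP18 (At5g44610), a microtubule-destabilizing protein of polar growth, had signals of 3926, 4048 and 4715 in agp6 agp11, against 2866, 2371 and 2807 in wild type. These 3 genes had the highest wild type means of the module, and their ratios of 1.94, 1.87 and 1.58 were all below the median of the members.

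PROT1 (At2g39890), a proline transporter, had signals of 4104, 4785 and 4014 in agp6 agp11, against 1675, 2024 and 895 in wild type, a ratio of 2.96. RDUF2 (At5g59550), a RING finger protein gene, had signals of 4204, 2854 and 2834 in agp6 agp11, against 1629, 1404 and 1642 in wild type, a ratio of 2.08. At5g60250, another RING finger protein gene, had signals of 4407, 2955 and 4084 in agp6 agp11, against 1560.2, 1282 and 1716 in wild type, a ratio of 2.49. The other members among the 8 brightest in wild type were At3g28790, with a mean signal of 3591 ± 414 in agp6 agp11 and 1397 ± 479 in wild type, and the beta glucosidase gene BGLU12, with a mean of 2426 ± 653 in agp6 agp11 and 1277 ± 190.1 in wild type (SD, n = 3 each).

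Genes of DNA replication, cohesion and repair numbered 10, with ratios of up to 8.43 and a median of 2.11. CTF7 (At4g31400), the acetyltransferase that establishes sister chromatid cohesion, had signals of 1707, 909 and 1453 in agp6 agp11, against 179, 122 and 173 in wild type, a ratio of 8.43. RPA32B (At3g02920), a subunit of the single-strand DNA-binding complex RPA, had signals of 1380.3, 1078 and 1161 in agp6 agp11, against 288, 230.2 and 359 in wild type, a ratio of 4.17. MCM4 (At2g16440), a subunit of the replicative helicase, had signals of 916, 545 and 479.6 in agp6 agp11, against 297, 239 and 256 in wild type, a ratio of 2.36. For CTF7 and RPA32B even the lowest double mutant array was 5.09 and 3.00 times the highest wild type array.

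The cohesin kleisin SYN3, the origin recognition subunit ORC1B, the cell cycle inhibitor SMR4, the cyclin CYCA2;1, the dUTP pyrophosphatase DUT1 and the helicase subunit MCM5 had ratios of 1.87 to 2.18. In all 10 genes of the group replicate 1 was the highest double mutant array, as it was in 75% of all members.

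Sperm cell genes numbered 4 beside the replication genes, with DAZ3 described above. DAZ2 (At4g35280), a related zinc finger gene, had signals of 559, 340.1 and 269 in agp6 agp11, against 65.1, 92.97 and 56.5 in wild type, a ratio of 5.31. HAP2 (At4g11720), a membrane protein needed for gamete fusion, had signals of 507, 266 and 375 in agp6 agp11, against 138, 96.8 and 124 in wild type, a ratio of 3.13. AGO5 (At2g27880), an Argonaute protein of the gametes, had signals of 151, 100.3 and 84.1 in agp6 agp11, against 47.7, 53.9 and 46.1 in wild type, a ratio of 2.21. The genotypes did not overlap for any of them, as the rule requires. In these bulk samples more sperm cells and more RNA per sperm cell cannot be told apart, nor can fewer cells and less RNA per cell.

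Chromatin and transcription genes were the second largest group, with 18 members and ratios of 1.47 to 2.85 (median 2.02). NRPB5 (At3g22320), a subunit of RNA polymerase II, had signals of 195, 234 and 140.4 in agp6 agp11, against 65.1, 51.9 and 81.8 in wild type, a ratio of 2.85. GATA17 (At3g16870), a GATA transcription factor, had signals of 402, 183 and 353 in agp6 agp11, against 120.4, 116 and 128 in wild type, a ratio of 2.44. NRPB5 had the largest ratio of the group, and ATRX, a chromatin remodeller of the SNF2 family, was its brightest gene in wild type, with a mean of 2195 ± 658 in agp6 agp11 and 1099 ± 138 in wild type (SD, n = 3 each).

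The group also held genes for silencing marks. SUVH4, a histone H3 lysine 9 methyltransferase, averaged 150.3 ± 30.1 in agp6 agp11 and 73.5 ± 4.22 in wild type, and VIM3, a protein that binds methylated DNA, averaged 187 ± 52.1 in agp6 agp11 and 91.2 ± 13.7 in wild type (SD, n = 3 each). FDM4, a factor of RNA-directed DNA methylation, the remodeller CHR19, the histone variant gene HTA11, the acetylation adaptor ADA2B and the arginine methyltransferase PRMT10 had ratios of 1.76 to 2.09. The transcription factors DEAR3, NFXL2, WRKY32 and SPL12 had ratios of 1.47 to 2.21. TRFL9, SDG14, CYCT1;5 and TBP1 completed the group, with ratios of 1.77 to 2.32.

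The ubiquitin and SUMO pathways and protease inhibitors formed the largest group, with 19 members and ratios of 1.51 to 16.5 (median 2.15). F-box proteins choose the targets of a class of ubiquitin ligases, and 7 F-box genes were members. The expressed F-box genes outside the module were not counted, so this number is no measure of the family. The paper lists F-box genes as both up- and down-regulated. At3g17710 had signals of 506, 589 and 333 in agp6 agp11, against 158, 154 and 74.6 in wild type, a ratio of 3.80. At2g17020 had signals of 257, 176 and 175 in agp6 agp11, against 70.7, 65.1 and 72.7 in wild type, a ratio of 2.87. Apart from At1g65760, the F-box genes had ratios of 1.84 to 3.80.

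Ubiquitin ligases of the RING type were represented by BRG2, ARI1, RDUF2 and At5g60250, with ratios of 2.08 to 2.81. BRG2 (At1g79110) had signals of 460.2, 338 and 481 in agp6 agp11, against 164, 131 and 157 in wild type. CSN8 (At4g14110), a subunit of the COP9 signalosome that removes a ubiquitin-like modifier from cullins, averaged 450.2 ± 105 in agp6 agp11 and 168 ± 20.7 in wild type. The cullin CUL4 itself averaged 328 ± 61.3 in agp6 agp11 and 180.0 ± 11.6 in wild type. SCE1 (At3g57870), the SUMO-conjugating enzyme, averaged 697 ± 142 in agp6 agp11 and 322 ± 54.3 in wild type (SD, n = 3 each). These 3 genes had ratios of 1.80 to 2.65, and UBC7, UBQ2 and NPL41 had ratios of 1.74, 1.59 and 1.51.

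Cystatins inhibit cysteine proteases, and vacuolar processing enzymes are cysteine proteases of the vacuole. CYS6 (At3g12490) averaged 1466 ± 239 in agp6 agp11 and 729 ± 45.2 in wild type, and CYS7 (At5g05110) averaged 121 ± 14.3 in agp6 agp11 and 45.5 ± 4.15 in wild type (SD, n = 3 each). The proteases VPEgamma and VPEalpha were members too, VPEgamma at 808 ± 246 in agp6 agp11 and 425 ± 33.1 in wild type and VPEalpha at 80.4 ± 14.4 in agp6 agp11 and 46.7 ± 5.84 in wild type (SD, n = 3 each). Both the inhibitors and the enzymes of this protease class were among the members.

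Membrane traffic and vacuole genes numbered 10 with these proteases, and they had the lowest median ratio of the 16 groups, 1.79. HVA22E (At5g50720), of a family of membrane proteins in the endoplasmic reticulum, had signals of 1189.7, 744 and 1211 in agp6 agp11, against 368, 316 and 473 in wild type, a ratio of 2.69. VHA-E1 (At4g11150), a subunit of the vacuolar proton pump, had signals of 632, 543 and 514 in agp6 agp11, against 241, 347 and 237 in wild type, a ratio of 2.07. The pump subunit VHA-B1, the syntaxins SYP73 and SYP81 of the endoplasmic reticulum, the small GTPases ARFB1B and RABE1A and the synaptotagmin SYTB had ratios of 1.53 to 1.87.

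In sugar metabolism 9 genes were members, with ratios of 1.70 to 13.5 (median 2.19). BGLU14 (At2g25630), a beta glucosidase gene, had signals of 1183, 971 and 1332 in agp6 agp11, against 153, 173 and 94.6 in wild type, a ratio of 8.48. SWEET8 (At5g40260), a sugar exporter, had signals of 131, 178 and 88.0 in agp6 agp11, against 51.5, 61.0 and 45.2 in wild type, a ratio of 2.44. PFK4 (At5g61580), a phosphofructokinase, had signals of 127, 156 and 96.5 in agp6 agp11, against 58.9, 61.6 and 42.5 in wild type, a ratio of 2.31. The glycolytic genes FBA8, PFK4 and ENO3 differed widely in ratio, at 13.5, 2.31 and 1.70. SPS2F (At5g11110), a sucrose phosphate synthase, averaged 2153 ± 509.8 in agp6 agp11 and 965 ± 83.6 in wild type (SD, n = 3 each). UXS4, which makes UDP-xylose for the wall, and SBE2.2, a starch branching enzyme, had ratios of 2.11 and 1.79.

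Mitochondrial genes with an annotated role numbered 4. COX19-2 (At1g69750), a copper chaperone of cytochrome c oxidase, had signals of 898, 803 and 924 in agp6 agp11, against 358, 282 and 255 in wild type, a ratio of 2.96. IDH2 (At2g17130), a subunit of isocitrate dehydrogenase, had signals of 666, 392.4 and 453 in agp6 agp11, against 214, 149 and 246 in wild type, a ratio of 2.47. No wild type array reached the lowest double mutant array in either gene, as the rule requires of every member. IAR4 (At1g24180), the E1 alpha subunit of pyruvate dehydrogenase, had signals of 1629.8, 1036 and 1176 in agp6 agp11, against 617, 566 and 577 in wild type, a ratio of 2.14. SDH2-2 (At5g40650), the iron-sulfur subunit of succinate dehydrogenase, had signals of 522, 472 and 568 in agp6 agp11, against 262, 253 and 232 in wild type, a ratio of 2.09. At4g02580 and At1g51650, listed with the respiration genes but given no name in the tables, were members as well, with ratios of 2.34 and 2.40.

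Ion and solute transport held 12 members, with ratios of 1.54 to 3.55 (median 2.43). CHX9 (At5g22910), a cation/H+ exchanger, had signals of 853, 921 and 669 in agp6 agp11, against 398, 202 and 146 in wild type, a ratio of 3.55. SULTR3;5 (At5g19600), a sulfate transporter, had signals of 171, 143 and 160.2 in agp6 agp11, against 47.8, 42.98 and 61.7 in wild type, a ratio of 3.14. ABCG14 (At1g31770), an ABC transporter, had signals of 359, 236 and 293 in agp6 agp11, against 151, 61.1 and 115 in wild type, a ratio of 2.86. In CHX9 wild type replicate 1 was well above the other wild type arrays, and the lowest double mutant array was 1.68 times it.

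CHX26, from the same exchanger family, averaged 271 ± 42.8 in agp6 agp11 and 115 ± 46.7 in wild type, and wild type replicate 1 was again the highest. The plasma membrane calcium pump ACA8 averaged 207 ± 79.3 in agp6 agp11 and 81.6 ± 5.89 in wild type, and the cyclic nucleotide-gated channel CNGC9 averaged 269 ± 67.3 in agp6 agp11 and 98.9 ± 20.9 in wild type (SD, n = 3 each). The ABC transporter ABCB10, the sulfate transporter SULTR3;1, the mechanosensitive channel MSL3, the peroxisomal carrier PXN and the purine permease PUP3 had ratios of 1.54 to 2.42.

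Calcium signalling genes had modest ratios, 1.44 to 2.58 over 5 members. CIPK13 (At2g34180), a kinase that is switched on by calcineurin B-like calcium sensors, had signals of 292, 246 and 277 in agp6 agp11, against 103, 78.4 and 144 in wild type, a ratio of 2.58. CBL9 (At5g47100), a sensor of that type, averaged 189 ± 10.8 in agp6 agp11 and 132 ± 5.90 in wild type (SD, n = 3 each). The ratio of CBL9, 1.44, was among the 4 ratios below 1.5 in the module, and CML42, IQD27 and At1g05150 had ratios of 1.92, 1.81 and 1.85.

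Cell wall genes numbered 6, of which EXPB5 was by far the brightest. GSL04 (At3g14570), a callose synthase-like gene, had signals of 325, 218 and 182 in agp6 agp11, against 82.8, 60.4 and 62.6 in wild type, a ratio of 3.46. BG5 (At5g20340), a beta-1,3-glucanase, an enzyme class that cuts callose, had signals of 1189, 751 and 822 in agp6 agp11, against 311, 429 and 224 in wild type, a ratio of 2.91. PG2 (At1g70370), a polygalacturonase, an enzyme class that cuts pectin, had signals of 274, 209 and 159 in agp6 agp11, against 77.8, 92.6 and 80.8 in wild type, a ratio of 2.50. BGAL4 and TBL20 had ratios of 2.39 and 1.89.

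The cytoskeleton and tip growth group held 4 genes, MAP18 among them. VLN1 (At2g29890), an actin-bundling villin, had signals of 1115, 698 and 757 in agp6 agp11, against 201, 199.5 and 217 in wild type, a ratio of 4.08. TIP1 (At5g20350), an S-acyltransferase needed for tip growth of root hairs, had signals of 848, 637 and 486 in agp6 agp11, against 271, 293 and 149 in wild type, a ratio of 2.81. WPP2, a protein of the nuclear envelope, averaged 1486 ± 326 in agp6 agp11 and 614 ± 55.95 in wild type (SD, n = 3 each). VLN1 varied little between the wild type arrays.

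Lipid genes had the highest median ratio of the 16 groups, 2.75 over 6 members. GPAT9 (At5g60620), the acyltransferase of the first step of glycerolipid synthesis, had signals of 403, 329.6 and 532 in agp6 agp11, against 60.3, 92.9 and 42.1 in wild type, a ratio of 6.70. FAB1D (At1g34260), of the family that makes phosphatidylinositol 3,5-bisphosphate, had signals of 1844, 1115 and 1186 in agp6 agp11, against 317, 327 and 255 in wild type, a ratio of 4.52. ORP1B, LACS4, ATCES1 and ALT3 had ratios of 2.94, 2.55, 2.55 and 1.81. The 3 ratios of GPAT9 for arrays of the same replicate number spread from 3.55 to 12.7.

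The genes grouped for clock, light, phosphate and stress numbered 11, with ratios of 1.5 to 11.6 (median 1.94). PLPB (At2g02710), a light-sensing PAS/LOV protein, had signals of 287, 244 and 247 in agp6 agp11, against 61.3, 55.03 and 72.99 in wild type, a ratio of 4.12. HSPRO2 (At2g40000), related to a nematode resistance protein of sugar beet, had signals of 234, 187 and 435 in agp6 agp11, against 84.7, 78.2 and 94.8 in wild type, a ratio of 3.11. SPX1 (At5g20150), a sensor of phosphate status, averaged 153 ± 37.8 in agp6 agp11 and 54.99 ± 4.43 in wild type (SD, n = 3 each). The purple acid phosphatase genes PAP17 and PAP27 had ratios of 1.89 and 1.77, and MT2A, CSP3, SRO2 and the DnaJ gene At1g72070 had ratios of 1.5 to 1.94.

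In RNA metabolism and translation 9 genes were members, with ratios of 1.78 to 5.08 (median 2.29). IMPA-5 (At5g49310), an importin alpha for nuclear import, had signals of 409.5, 223 and 229.9 in agp6 agp11, against 50.9, 47.0 and 67.02 in wild type, a ratio of 5.08. GHS1 (At3g27160) had signals of 214, 193 and 159 in agp6 agp11, against 64.2, 77.8 and 67.9 in wild type, a ratio of 2.69. In both genes replicate 1 was the highest double mutant array, as it was in 75% of all members. NOF1 (At1g17690) had signals of 323, 220.1 and 345 in agp6 agp11, against 113, 95.2 and 133 in wild type, a ratio of 2.58. RS2Z32 (At3g53500), an SR splicing factor, had signals of 1685, 842 and 1249 in agp6 agp11, against 485, 546 and 449.6 in wild type, a ratio of 2.46. EIF4G (At3g60240), the scaffold of translation initiation, averaged 362 ± 68.96 in agp6 agp11 and 157 ± 23.8 in wild type (SD, n = 3 each). SEN1, ERF1-1, TRM82 and RPS13 had ratios of 1.78 to 2.07.

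The last groups were enzymes of nitrogen, sulfur and other metabolism, with 6 members, and kinases, phosphatases and their partners, also with 6. ALN (At4g04955), the allantoinase of purine breakdown, had signals of 487, 304 and 449 in agp6 agp11, against 110.1, 70.5 and 135 in wild type, a ratio of 3.98. SOX (At3g01910), sulfite oxidase, had signals of 1130.2, 607 and 1020.0 in agp6 agp11, against 279, 267 and 321 in wild type, a ratio of 3.08. BPA1 (At5g16840), a binding partner of the cell death regulator ACD11, had signals of 1242, 692 and 1138 in agp6 agp11, against 225, 218 and 290.1 in wild type, a ratio of 4.09. CHLG, CYP735A1, ARD1 and NUDT21 had ratios of 1.89 to 2.44, and CCI1, PPX2, PEPKR2, At5g23170 and TWD1 had ratios of 1.64 to 2.71.

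**Figure D3:**
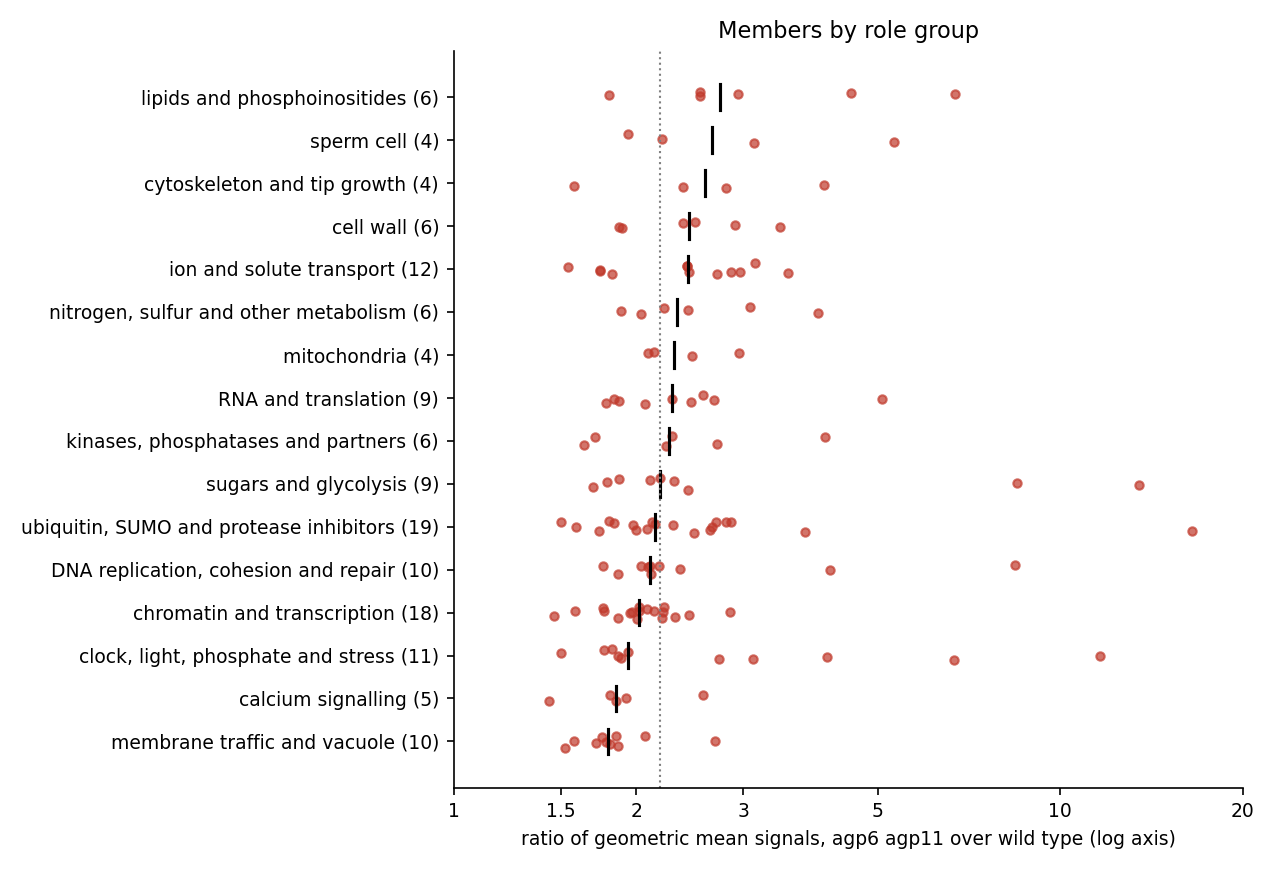
Ratio of geometric mean signals, agp6 agp11 over wild type (horizontal, log axis), for the 139 members with a role, by group with the number of members in brackets. Each point is a probe set, a black bar marks the median of the group and the dotted line the median of all 304 members, and points are spread vertically at random for visibility. Group medians run from 1.79 for membrane traffic and vacuole to 2.75 for lipids, and the ratios above 5 are spread over 7 of the groups.

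The 165 members with no role given here had ratios of 1.38 to 13.7 and a median of 2.19, the same to 3 digits as that of the whole module. Their largest ratios were those of At5g40640, At2g15280, At5g01650, At3g12470 and At5g08140, given above, followed by At4g17010 at 5.47 and At2g18180 at 5.04. The smallest ratio of the module, 1.38, was that of At4g32900, at 58.5 ± 1.39 in agp6 agp11 and 42.5 ± 1.26 in wild type (SD, n = 3 each).

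The members were not raised equally on the 3 double mutant arrays. Replicate 1 was the highest double mutant array for 228 members, or 75%, against 39.7% of the expressed probe sets outside the module, and replicate 2 was the lowest for 189 members. Of the ratios for arrays of the same number, the median over the members was 2.58 for replicate 1, 1.94 for replicate 2 and 2.05 for replicate 3, with lowest values of 1.36, 1.31 and 1.31. Over the other expressed probe sets these medians were 1.04, 1.03 and 1.08. Among the wild type arrays replicates 1, 2 and 3 were the highest for 102, 82 and 120 members. Without double mutant replicate 1 the median ratio of the members was 1.97, with a range of 1.36 to 14.7.

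**Figure D4:**
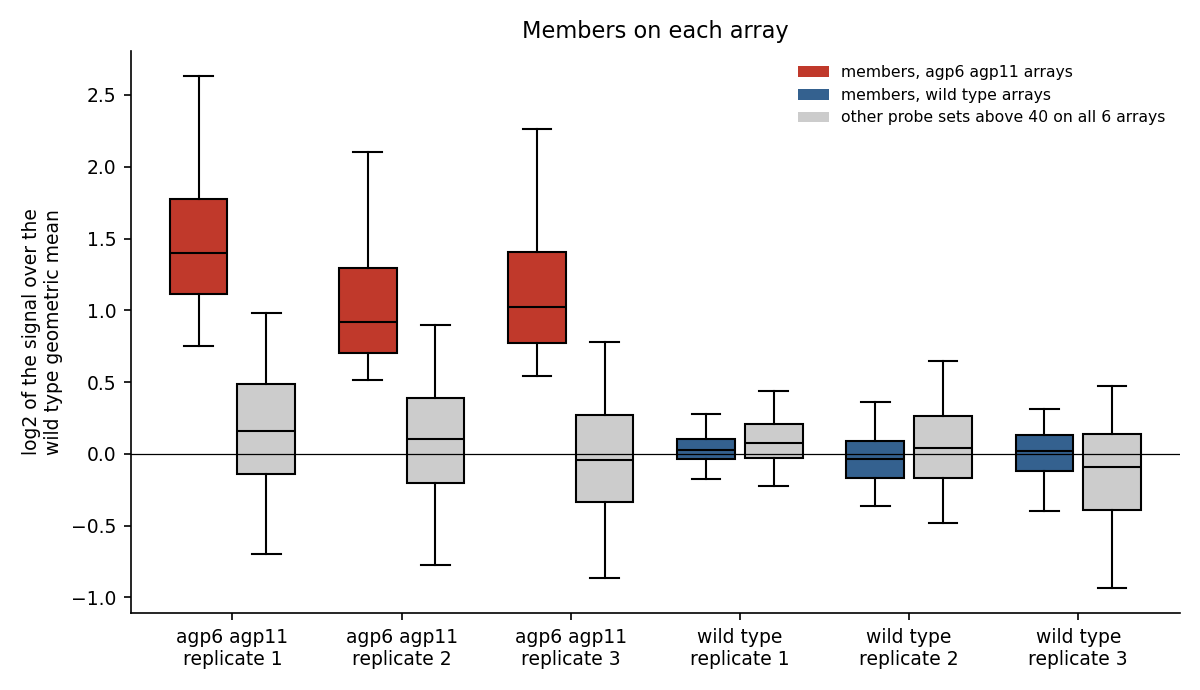
Log2 of the signal on each array over the wild type geometric mean of the same probe set, for the 304 members (red, agp6 agp11 arrays; blue, wild type arrays) and the 4554 other probe sets above 40 on all 6 arrays (grey). Boxes span the quartiles with the median, and whiskers reach the 5th and 95th percentiles. The members sit highest on agp6 agp11 replicate 1, while the grey boxes stay near 0 on every array.

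Most members had genes placed in the RefSeq annotation of the TAIR10.1 assembly, which was used here only for names and gene order. Of the protein-coding members 67, 34, 73, 41 and 81 lay on chromosomes 1 to 5. Among expressed probe sets named by the platform annotation, which was not made from these data, 177 of 2584 were members (6.85%), and by chromosome the share was 6.94%, 4.76%, 7.30%, 7.28% and 7.35% for chromosomes 1, 2, 3, 4 and 5. Within 400 genes on either side of AGP6 3 of 91 such probe sets were members, and within 400 genes of AGP11 3 of 59. These shares are descriptions and were not tested.

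In 5 cases members were direct neighbours among protein-coding genes: At2g15270 with At2g15280, At3g13440 with TBP1, BG5 with TIP1, SWEET8 with At5g40270, and At5g60250 with At5g60260. Ratios within a pair were alike in some cases, 2.91 for BG5 and 2.81 for TIP1, and 2.49 for At5g60250 and 2.52 for At5g60260. They differed in others, 2.50 for At2g15270 and 8.90 for At2g15280.

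Relatives of the members that lie outside the module can be tested, though genes raised enough to enter the module are missing from them, so their counts of higher genes are low by construction. Lists of pathway genes and cell type markers held 203 loci annotated in the tables used here, of which 85 had a named probe set: 42 were members and 43 were not. Many of these members were named only by the study's gene table, which favours changed genes. Their share of the 85 is therefore no measure of how often these pathways were raised, and the same holds for each list below. Among expressed probe sets named by the platform annotation, 6.85% were members. Outside the module 24 genes were named by the platform annotation, and 19 only by the study's gene table, which had been ordered by fold change, so counts for these 19 are not independent of the genotypes. Limma was fitted with genotype as the only term, and calls were made at 0.05 after Benjamini-Hochberg adjustment across the whole table. This fit ignores the replicate number, although arrays of the same number were alike. List genes whose call changed with that number as a block are given below with both values. Of the 22746 probe sets, 2.01% were higher and 1.67% lower in agp6 agp11. Among those named by the platform annotation the shares were 2.04% and 1.61%, and among the 4554 expressed probe sets outside the module they were 0.154% and 1.47%. Of the 24 genes from the platform annotation 0 passed as higher and 1 as lower (1 and 1 at an unadjusted p below 0.05), with a median ratio of 1.08, and of the 19 other genes 3 passed as higher and 2 as lower (14 and 4 at an unadjusted p below 0.05, and 11 and 4 at the adjusted threshold with the replicate block), with a median ratio of 1.59. The lists held 15 further loci outside the module for which the tables give a probe set but no name, and these are given by locus only. Of these 15, 1 was higher and 1 lower, and the other 13 had ratios of 0.616 to 1.36, several of them below 40 on every array. With them kept, 4 of 58 genes were higher and 4 lower.

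For replication, 5 listed genes were members and 8 others could be measured. PCNA2 (At2g29570), a sliding clamp of DNA polymerase, had signals of 61.5, 44.2 and 56.5 in agp6 agp11, against 15.5, 21.01 and 14.1 in wild type, and was higher (adjusted p = 0.00213, limma). ORC4 (At2g01120), of the origin recognition complex, had signals of 60.02, 39.4 and 52.4 in agp6 agp11, against 23.6, 24.4 and 25.5 in wild type, and was higher (adjusted p = 0.02, limma). The call of ORC4 was lost without agp6 agp11 replicate 1 or wild type replicate 1 or 2 (adjusted p = 0.0976, 0.125 and 0.0732, limma). Wild type signals of both genes lay below 40, which kept them out of the module.

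MCM2, CDT1A and RPA32A had ratios of 1.75, 1.73 and 1.59 and did not pass (adjusted p = 0.225, 0.33 and 0.287, limma), and with the replicate number as a block they did (adjusted p = 0.039, 0.0282 and 0.0483, limma). MCM7 (At4g02060), another helicase subunit, had signals of 1059, 815 and 942 in agp6 agp11, against 889.6, 818 and 1030.4 in wild type, and did not pass (adjusted p = 0.97, limma), nor with the block. CDC45 (At3g25100), a partner of the helicase, had signals of 31.6, 35.7 and 26.2 in agp6 agp11, against 45.4, 52.2 and 53.8 in wild type, a value that did not pass (adjusted p = 0.0907, limma) and passed as lower with the block (adjusted p = 0.0372, limma). RNR1 lay below 40 on 5 of the 6 arrays and did not pass (adjusted p = 0.251, limma).

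For cohesin and DNA repair the 4 listed loci with a probe set were all members, CTF7, SYN3 and At1g49980 among them, the last without a name in the tables. In the list of endoplasmic reticulum and Golgi traffic SYP81, SYP73, RABE1A and SYTB were members, and At5g59840 was not, with a ratio of 0.911 (adjusted p = 0.892, limma). A list of vesicle coat subunits held 10 measured loci, all without a name in the tables. At1g62020 and At4g34450 were members, with ratios of 3.09 and 1.55. At2g21390 had signals of 169, 123 and 157 in agp6 agp11, against 35.7, 31.3 and 43.2 in wild type, and was higher (adjusted p = 0.00106, limma), with the wild type below 40 on replicates 1 and 2. The other 7 loci had ratios of 0.727 to 1.36 and did not pass. Of these only At1g79990 was above 40 on all 6 arrays, and At1g52360, At1g30630 and At2g34840 were below 40 on every array.

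Of the other sperm cell genes MGH3 (At1g19890), which encodes a male gamete histone, had signals of 6405, 4147 and 5067 in agp6 agp11, against 3385, 2919.6 and 3326 in wild type, and did not pass (adjusted p = 0.241, and 0.0244 with the replicate block, limma). PCR11 (At1g68610) had signals of 5010.1, 3597 and 4507 in agp6 agp11, against 11662, 10528 and 13397 in wild type, and was lower (log2 difference -1.45, standard error 0.23, adjusted p = 0.00808, limma). DAZ1 had a ratio of 1.88 (adjusted p = 0.257, and 0.032 with the replicate block, limma). The direction of PCR11 is opposite to that of the 4 sperm cell members, and its call held in each alternative fit (adjusted p = 0.000298 to 0.0445).

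In mitochondrial respiration, counting the loci with a name, 3 listed genes were members and 8 were not, and 0 of these 8 passed in either direction in limma, with or without the replicate block, and 0 had an unadjusted p below 0.05. SDH2-1 (At3g27380), the close paralogue of SDH2-2, had signals of 508, 512 and 437 in agp6 agp11, against 388, 461 and 322 in wild type, a ratio of 1.25 (adjusted p = 0.643, limma). CYTC2 (At4g10040), cytochrome c, had signals of 1572, 1437 and 1714 in agp6 agp11, against 1575, 1684 and 1609 in wild type, a ratio of 0.968 (adjusted p = 0.961, limma). The median ratio of the 8 genes was 1.12, and SDH1-2 among them was below 40 on every array. In glycolysis, sucrose and starch 6 genes were members and 4 were not, with ratios of 0.841 to 1.40, 0 calls in limma and 1 unadjusted p below 0.05. Both ends of this range were dim genes: SPS4F was below 40 on every array, and PFK6 on all wild type arrays.

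For the COP9 signalosome, cullins and SUMO, 3 genes were members and 6 were not. CSN2 (At2g26990), another signalosome subunit, had signals of 154, 96.2 and 127 in agp6 agp11, against 22.6, 30.2 and 21.8 in wild type, and was higher (adjusted p = 0.000669, limma). CSN5A (At1g22920), the catalytic subunit, had signals of 18.97, 23.1 and 17.6 in agp6 agp11, against 47.2, 54.8 and 36.7 in wild type, and was lower (adjusted p = 0.00964, limma). SAE1A (At4g24940), a subunit of the SUMO-activating enzyme, had signals of 15.9, 14.9 and 13.9 in agp6 agp11, against 27.98, 26.02 and 34.9 in wild type, and was lower (adjusted p = 0.0109, limma), though below 40 on every array.

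The members CSN8 and SCE1 and the outside genes CSN5A and SAE1A of the same pathways had ratios on opposite sides of 1. CSN2 was below 40 on all wild type arrays, and CSN5A on all agp6 agp11 arrays and on wild type replicate 3. The call of CSN5A was lost without agp6 agp11 replicate 1 or wild type replicate 1 (adjusted p = 0.0653 and 0.0590), and that of SAE1A without wild type replicate 1 (adjusted p = 0.0539, limma). CUL3A had a ratio of 1.65 (adjusted p = 0.342, and 0.0225 with the block, limma).

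For ion transport 7 listed genes were members and 6 exchangers of the CHX family were not, with ratios of 1.04 to 1.66. CHX23, CHX24 and CHX25 had ratios of 1.66, 1.59 and 1.55, with CHX23 and CHX24 below 40 on all wild type arrays, and did not pass (adjusted p = 0.0701, 0.142 and 0.171, and 0.0225, 0.0306 and 0.0487 with the replicate block, limma), while CHX19, CHX21 and CHX28 had ratios of 1.04, 1.41 and 1.25 and passed in neither fit. Of the vacuolar processing enzymes and cystatins 4 were members, while VPEbeta and VPEdelta lay below 40 on every array and CYS1 had a ratio of 1.10, all without a call. CYS3 averaged 179 ± 78.9 in agp6 agp11 and 345 ± 49.8 in wild type (SD, n = 3 each, adjusted p = 0.183, and 0.0142 with the block, limma). At5g47550, on the same list but without a name in the tables, had signals of 38.6, 39.1 and 35.97 in agp6 agp11, against 179.8, 180.4 and 194 in wild type, and was lower (adjusted p = 0.000238, limma), below 40 on every agp6 agp11 array. Its direction is opposite to that of the 2 member cystatins. In the list of phosphoinositide and lipid genes GPAT9, LACS4 and FAB1D were members, and FAB1C lay below 40 on 5 of the 6 arrays and did not pass (adjusted p = 0.122, limma).

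**Figure D5:**
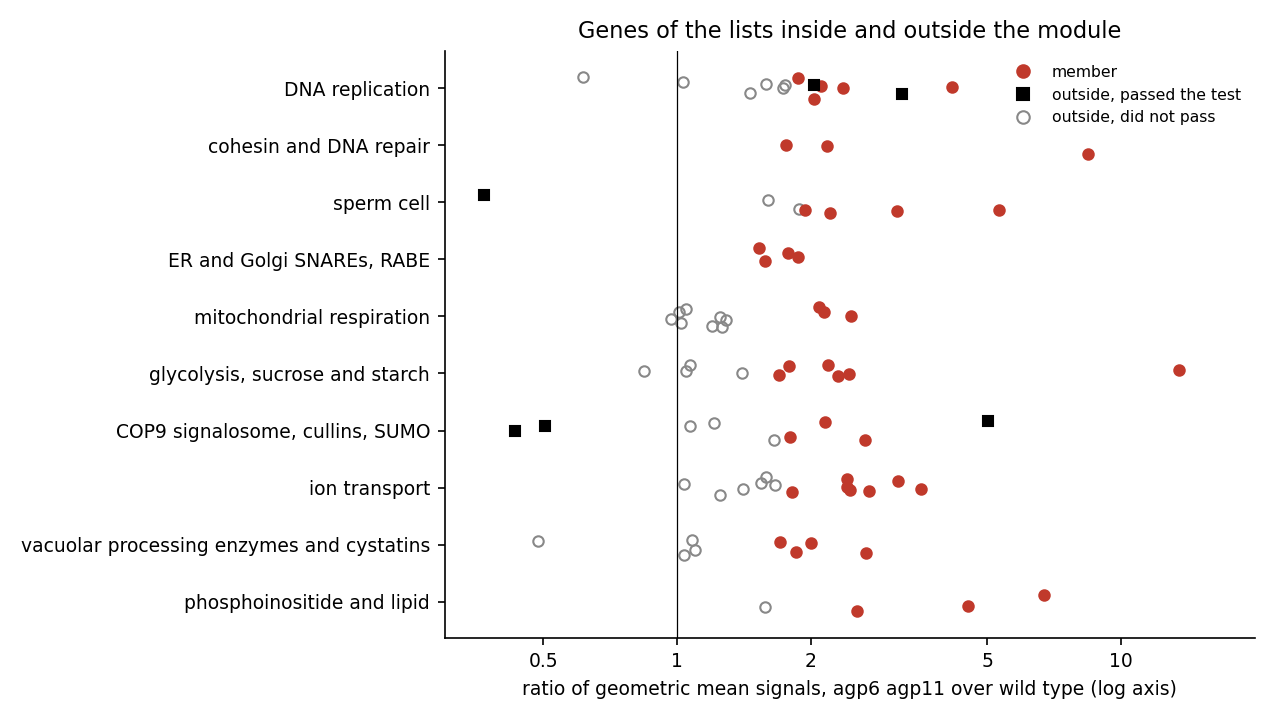
Ratio of geometric mean signals, agp6 agp11 over wild type (horizontal, log axis), for the genes of 10 pathway lists that have a name in the tables. Members are red, genes outside the module that passed limma at an adjusted p below 0.05 are black squares and other genes outside the module are open circles, and points are spread vertically at random. Outside genes of respiration and glycolysis have ratios of 0.968 to 1.29 and 0.841 to 1.40, and genes of the COP9 and SUMO list lie on both sides of 1. Some outside genes were dim, with SDH1-2 and SPS4F below a signal of 40 on every array.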

How the data were processed

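RNA of pollen tubes germinated in vitro was hybridised to Affymetrix ATH1 arrays, with 3 replicates of agp6 agp11 and 3 of wild type. The deposited values are intensities on a linear scale, which the authors made with dChip by invariant-set normalization and a model of perfect-match probes, and the labels name Affymetrix Expression Console. All 6 columns were used as deposited. Such arrays give no counting depth, so the number of arrays limits the precision.

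The members and gene lists were chosen with earlier results of these data known. Ratios are of geometric means over arrays. Genes outside the module were tested with limma 3.58.1 in R 4.3.3, with lmFit and an eBayes step that models the intensity trend. The fit used log2 of signals raised to at least 1, with Benjamini-Hochberg adjustment over 22746 probe sets and a threshold of 0.05. The procedure was run on simulated data with independent noise, so its behaviour where arrays of the same number are alike was not tested. The p-values set the genotype difference against the variation between these 6 samples, moderated across all probe sets. The text names the 12 members with the largest ratio, the 8 brightest in wild type, members of role groups and lists, members near each limit, and list genes outside the module that passed, with others of the same lists added beside them. Most members without a role are given by ranges and counts, and 1 gene of a role group is not reported here. Values on every array are given for up to 4 members of a role group, those with the largest ratio, and for most of the 8 brightest in wild type. Names came from the platform annotation or a gene table of the study that was ordered by change, and loci without a name in these tables or in RefSeq are given by locus and left out of the list counts unless stated.

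The labels number the replicates 1 to 3 in both genotypes but do not say what a number shares. Deviations from the genotype means correlated at 0.378, 0.685 and 0.73 for arrays of the same number, so the numbers were treated as pairs. Alternatives were quantile and median scaling, an offset of 32, a filter on mean signal, no intensity trend, the replicate block, leaving out each array, and other limits for the module.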

Additional observations from a re-analysis of the deposited data

How the results depend on the processing

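The module held 304 probe sets, 161 with a ratio minimum of 1.5, and 324 to 529 without 1 of the arrays, with the 529 reached without agp6 agp11 replicate 2. By the form of the rule a higher ratio minimum can only remove probe sets, and leaving out an array can only add them. Quantile normalization gave 206 probe sets, of which 200 were members, and moved the median member ratio to 1.98, against 2.19 as deposited. Among list genes outside the module, 3 were higher and 3 lower, against 1 and 1 among probe sets with a mean signal above 40 only. That filter took out PCNA2, ORC4, CSN5A and SAE1A as too dim, so they were not tested there. CSN2 and PCR11 stayed in and passed (adjusted p = 0.000567 and 0.00277, limma). Without 1 array 2 to 4 were higher and 1 to 3 lower, with 1 lower without wild type replicate 1. Over all probe sets 457 were higher and 380 lower, and without 1 array 191 to 506 were higher and 181 to 365 lower. The counts without agp6 agp11 replicate 1 were 212 and 191, and without wild type replicate 1 they were 191 and 181. Without wild type replicate 2, 271 were higher, and without agp6 agp11 replicate 2, 247 were lower. With the replicate number as a block for the pairing, 12 list genes were higher and 5 lower, and over all probe sets 1145 and 752. The cause of the shifts other than that under the filter on mean signal was not tested.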

Other observations

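Outside the module, 7 of the 4554 other probe sets above 40 on all 6 arrays passed limma as higher in agp6 agp11 (0.154%) and 67 as lower (1.47%). The rule had taken raised probe sets out of these 4554 and had left lowered ones in. The count of higher probe sets is therefore low by construction and cannot be set against that of lower ones. The loci left out of the module are also among the 4554. Within the module 21 members had a largest ratio for arrays of the same number over 2 times their smallest.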
